A study of Mus musculus with 90 samples.

Results

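Single 2-cell (2c) mouse embryos from Plag1 knockout mothers were compared with 2c embryos from wild-type (WT) mothers, using every library whose stage label read 2c in a table of gene counts. These were 28 of the 90 libraries in the series, 14 per genotype, and 11 of 14 were kept in each group after libraries with a low median expression were left out. All animals were on the CD-1 background. Embryos titled KO (genotype label Plag1 knockout) came from Plag1 knockout females and embryos labelled WT from WT females. Samples titled KO, oocytes included, are written here as labelled matPlag1KO, which is the study's name for them. Both kinds of female were sexually mature, superovulated with gonadotropins and mated with WT studs. The embryos labelled matPlag1KO were therefore heterozygous, lacking maternal Plag1 from the oocyte onwards but carrying a WT allele from the father. Zygotes of both groups were cultured in KSOM medium, and the 2c embryos were picked at 45 to 47 h. These hours are on a clock shared with the MII oocytes, which were not cultured, and are not hours of culture. Each library was 1 embryo, with 5′ ends of transcripts counted by molecular identifier. The libraries were in 2 pools (libA and libB in the labels) that each held both genotypes. The pools are called plates A and B here, and the code after the pool is called a well. Neither word is in the labels. The kept libraries were 4 WT and 5 matPlag1KO embryos in plate A and 7 WT and 6 matPlag1KO embryos in plate B. Gene counts per kept embryo ran from 116914 to 194287 (median 148473) in WT and from 92475 to 256529 (median 163626) in matPlag1KO, and the libraries left out held 4432 to 93953 and 41889 to 84921. The donor female of each embryo is not in the labels, so the tests measure the spread between embryos, some of which may share a mother.

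At the 2c stage the mouse embryo passes from transcripts stored by the oocyte to its own. Maternal mRNAs are deadenylated and degraded, while embryonic genome activation brings a short wave of transient 2c genes and then the genes for ribosomes, splicing, energy metabolism and division. PLAG1 is a zinc finger transcription factor that binds GC-rich sites in promoters. Its relatives PLAGL1 and PLAGL2 bind similar sites.

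The study described a longer sequence around a PLAG1 site, most copies of which it placed in B1 repeats near gene starts. Whether the sites printed here lie in such repeats was not examined. The study picked promoters with this sequence from genes of its own expression comparison in these same embryos, so their presence near the genes described here is not independent evidence. They are printed for 3 genes that take different parts in the results, the splicing factor gene Luc7l, the chromatin ATPase gene Ruvbl1 and the ubiquitin ligase subunit gene Rnf7. Each lies in the mm9 build, at chr17:26389272-26389302 (plus strand, 553 bases before the Luc7l start), chr6:88414829-88414859 (plus strand, 558 bases before the Ruvbl1 start) and chr9:96379518-96379548 (minus strand, 424 bases before the Rnf7 start). Capitals mark the 12-base core searched for.
Luc7l: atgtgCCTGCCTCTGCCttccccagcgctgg
Ruvbl1: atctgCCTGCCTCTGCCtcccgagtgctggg
Rnf7: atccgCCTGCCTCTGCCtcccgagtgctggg
The core CCTGCCTCTGCC or its reverse complement GGCAGAGGCAGG was searched on both strands from 2000 bases before to 500 bases after every tested gene's start. It was present at 19.95% of all 16511 tested genes, at 29.6% of the lower genes (128 of 433) and at 14.8% of the higher genes (56 of 379) in the comparison below. CPM here are counts per 1000000 gene counts, with each library's total scaled by edgeR's TMM factor. Among genes with a mean of at least 50 CPM, 34.9% of the lower genes held the core (91 of 261). The shares were 15.2% of the higher genes (10 of 66) and 29.4% of the genes not called (738 of 2513). The core was read from sites the study listed for genes lower in these same embryos. A higher share among the lower genes is therefore partly built in. These shares describe letters in a window and were given no test.

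The targeted gene was examined first, because it checks the labels. In MII oocytes Plag1 averaged 32.8 ± 39.0 CPM (SD, n = 16) in WT and 0.457 ± 1.02 CPM (n = 14) in matPlag1KO, in the direction the labels give. In 2c embryos the order was the other way round. Plag1 was 35.9 ± 30.2 CPM (n = 11) in the embryos labelled matPlag1KO, where 9 of 11 embryos held 91 counts between them, and 0.392 ± 1.30 CPM (n = 11) in the embryos labelled WT, where 1 embryo held 1 count. The ratio was 80.6-fold (95% counting interval 14.1 to 3220), the fitted log2 fold change 5.59 ± 0.94 (SE) and the adjusted p 0.000127. At 8c the levels were 1.67 ± 3.31 CPM (n = 15) and 1.38 ± 2.21 CPM (n = 11) in WT and matPlag1KO. The paternal WT allele can be transcribed in embryos labelled matPlag1KO, and an exchange of the genotype labels at 2c was not tested. All directions below are those of the libraries as labelled.

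Other genes that separated the genotypes in oocytes were therefore read at 2c as well. In oocytes 129 genes were called, 0.781% of those tested, and 9 of them were also called at 2c, each in the opposite direction. These 9 are 6.98% of the oocyte calls, against 4.92% of all tested genes called at 2c. They are 1.11% of the 2c calls, against 0.781% of all tested genes called in oocytes. The oocyte and 2c comparisons share no library. Brf2, a subunit of the RNA polymerase III initiation factor, had a log2 fold change of 1.23 in oocytes and −1.27 at 2c. For Spsb3, an adaptor of cullin ubiquitin ligases, the values were −1.05 and 1.64, and for Nfam1, an immune receptor gene, −4.37 and 5.55. Nfam1 had no count in any embryo labelled WT and 33 counts in those labelled matPlag1KO, which makes it at least 9.75-fold higher if the WT group is set to 3 counts in all. Over all 129 oocyte calls, the 2c difference had the opposite sign in 80 and the same sign in 44. How often the signs differ over all tested genes was not computed, so these counts have no background. With scaling to spike-ins, 4 genes were called at both stages, 3 in opposite directions. Brf2, Spsb3 and Nfam1 were picked out here after their values were seen.

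**Figure D1:**
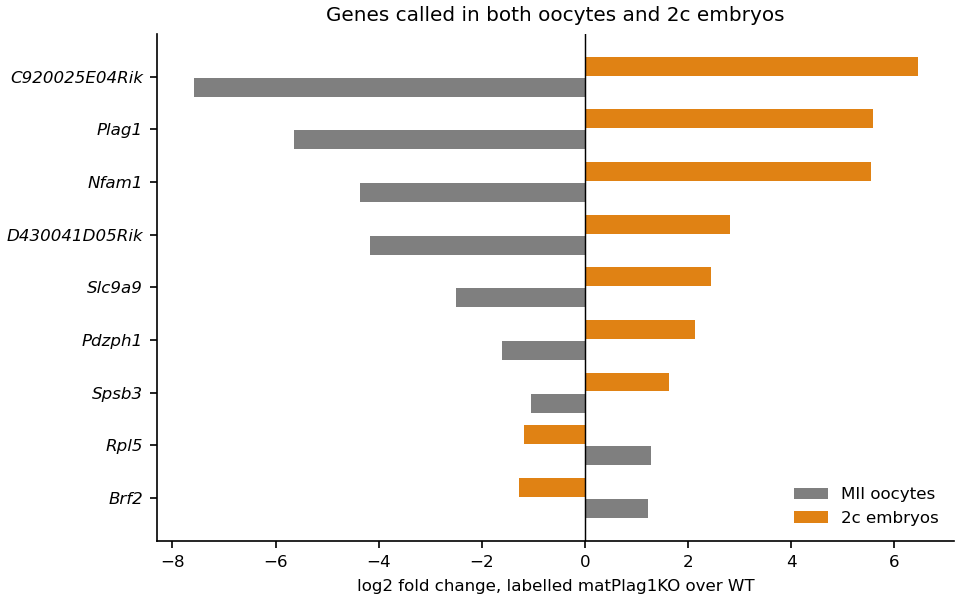
The horizontal bars give the log2 fold change of labelled matPlag1KO over WT for the 9 genes called both in MII oocytes (grey) and in 2c embryos (orange). For all 9 genes the bars of the 2 stages point to opposite sides of 0, with Plag1 at −5.64 in oocytes and 5.59 at 2c.

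Between the 2 groups of 2c embryos, 812 of 16511 tested genes passed an adjusted p of 0.05, which is 4.92%. Of these, 379 (2.3%) were higher and 433 (2.62%) lower in embryos labelled matPlag1KO, and 3380 (20.5%) had an unadjusted p under 0.05. Over all genes the fold changes had a median of 0.12 in log2. Higher and lower calls differed by expression level. Genes with a mean of 2 to 10 CPM were called higher in 3.29% and lower in 0.915% of cases, whereas genes over 200 CPM were called higher in 1.74% and lower in 15.2%. Lists of abundant genes are to be read against these shares. CPM values are relative to each embryo's own gene counts, with that total scaled by its TMM factor. Scaling to the spike-ins instead moved the median of all genes from 0.12 to 0.28 and left 285 calls, 191 higher and 94 lower. In plate B alone 524 genes were called, 226 higher and 298 lower, and in plate A alone none was (edgeR, 598 of 9569 tested genes at an unadjusted p under 0.05). The log2 ratio of gene counts to spike-in counts was 4.07 ± 0.35 (SD, n = 11) in embryos labelled matPlag1KO and 3.98 ± 0.21 (n = 11) in WT (permutation test, two-sided p = 0.471), so no difference in the total was detectable. When 90000 counts were drawn from every library, 8832.5 ± 411.5 genes were detected in embryos labelled matPlag1KO and 8409.4 ± 302.3 in WT, a difference of 423.1 genes (permutation test, two-sided p = 0.0135). Within plate B the difference was 464.6 genes (exact permutation test, p = 0.0455) and within plate A 392.1 (exact permutation test, p = 0.159).

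Only 1 gene lay higher in every embryo labelled matPlag1KO than in every WT embryo, Lyrm7, and only 1 lay lower in every embryo, Thyn1, each 0.00606% of the tested genes. Values below are the lowest, the median and the highest embryo of each group in CPM. Thyn1, a conserved nuclear protein gene on chromosome 9 (mm9 chr9:26807262-26814919), was at 7.97, 22.7 and 41.6 in embryos labelled matPlag1KO and at 49.5, 68.3 and 174 in WT (log2 fold change −1.68 ± 0.40, adjusted p = 0.00594). No embryo of one group reached the other, although the Thyn1 call was lost after spike-in scaling. Lyrm7, an assembly factor of respiratory complex III, was at 23.1, 36.96 and 148 against 0, 0 and 5.63 in WT. It rested on 177 counts against 1, a ratio of 157-fold (95% counting interval 27.8 to 6230).

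The rest of the 24 genes with the most separated embryos were ranked by the share of the 121 pairs of 1 embryo per genotype that differed in the called direction. Among the lower genes were several that are low in oocytes. Dnajb14, an ER co-chaperone gene (chr3:137530639-137571895), was at 39.9, 166 and 756 against 379, 791 and 1028 in WT and averaged 2.26 CPM in WT oocytes. Pcgf5, a subunit of a Polycomb repressive complex, was at 41.4, 127 and 208 against 189.6, 309.8 and 529.8 and at 2.17 in WT oocytes. Nop16, which acts in making the large ribosomal subunit, was at 28.6, 124 and 335 against 161, 359 and 687. For all of these, 8 or more of the embryos labelled matPlag1KO lay below the lowest WT embryo. Klhl7, a substrate adaptor of cullin-3 ligases, was likewise lower, at 8.16, 24.4 and 50.7 against 41.6, 77.8 and 161. Luc7l, which acts in choosing 5′ splice sites and whose upstream site is printed above, was at 10.6, 37.6 and 100.1 against 74.7, 119.8 and 214, and 10 of 11 embryos lay below WT. The mitophagy receptor gene Bnip3l was at 175, 249 and 415 against 293, 659 and 1507 and averaged 629 CPM in WT oocytes. Med17, the head-module subunit of Mediator, was near 0 in embryos labelled matPlag1KO, at 0, 0 and 11.3, against 5.59, 34.7 and 78.1. Only 3 of 11 embryos labelled matPlag1KO had a Med17 count, and every WT embryo did. Also lower were Hsd17b13, a lipid-droplet enzyme gene, at 0, 0 and 16.2 against 4.56, 44.7 and 99.05, and Tbcb, a tubulin-folding cofactor gene, at 45.1, 78.4 and 134 against 91.9, 189.9 and 417. Zfyve19, whose product acts in abscission of dividing cells, was at 10.6, 16.2 and 31.9 against 21.2, 54.6 and 76.3. The embryos of both groups overlapped in these 3 genes. D8Ertd738e was the remaining gene, at 57.1, 114 and 261 against 228, 375 and 642. After spike-in scaling Pcgf5, Klhl7, Nop16, Bnip3l and Tbcb were no longer called.

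Among the most separated higher genes, most were also present in the WT oocyte. D6Ertd474e (chr6:143194408-143246399) had the highest level of these, at 679, 1129 and 2168 against 123, 451 and 927 in WT, with means of 1049.2 CPM in WT oocytes and 4.37 CPM at 8c. Slc2a1, the glucose transporter GLUT1 (chr4:118781350-118809934), was at 6.69, 67.1 and 158 against 0, 6.26 and 21.8, and averaged 94.7 CPM in WT oocytes. In 9 of 11 embryos labelled matPlag1KO it lay above the highest WT embryo. Fars2, the mitochondrial phenylalanyl-tRNA synthetase, was at 36.5, 54.5 and 131 against 0, 17.9 and 40.2 (log2 fold change 1.64 ± 0.38, adjusted p = 0.00494). Mef2d, a MADS-box transcription factor gene, was at 13.4, 59.9 and 150.2 against 0, 0 and 25.9. Cdc34, the ubiquitin-conjugating enzyme of SCF ligases, was at 73.4, 148 and 660.3 against 16.9, 55.5 and 113. The embryos of the 2 groups overlapped for each of these 3 genes. Pign, which acts in making the GPI anchor, was at 11.3, 23.1 and 52.8 against 0, 4.56 and 17.9, and B3gnt7, a glycosyltransferase gene, at 3.25, 36.7 and 105 against 0, 0 and 12.5. Ric1, a Golgi exchange factor subunit gene, was at 23.9, 105 and 188 against 5.59, 22.8 and 67.2, Atrn, the attractin gene, at 20.1, 38.8 and 303 against 0, 11.3 and 109, and Pdzph1 at 13.4, 23.1 and 52.8 against 0, 5.46 and 25.9. Gm2560 rested on 84 counts against 2, a ratio of 37.2-fold (95% counting interval 9.99 to 312). After spike-in scaling 9 of these 11 genes remained called, and Ric1 and Atrn did not. Thyn1, Pcgf5, Zfyve19, Mef2d and Ric1 above, and Snrpa, Farsb, Atp5j, Pcx, Mpc1, Mat2a, Med31, Efl1 and Cbx1 below, overlap a gene model on the other strand, whose reads cannot be told apart from theirs.

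**Figure D2:**
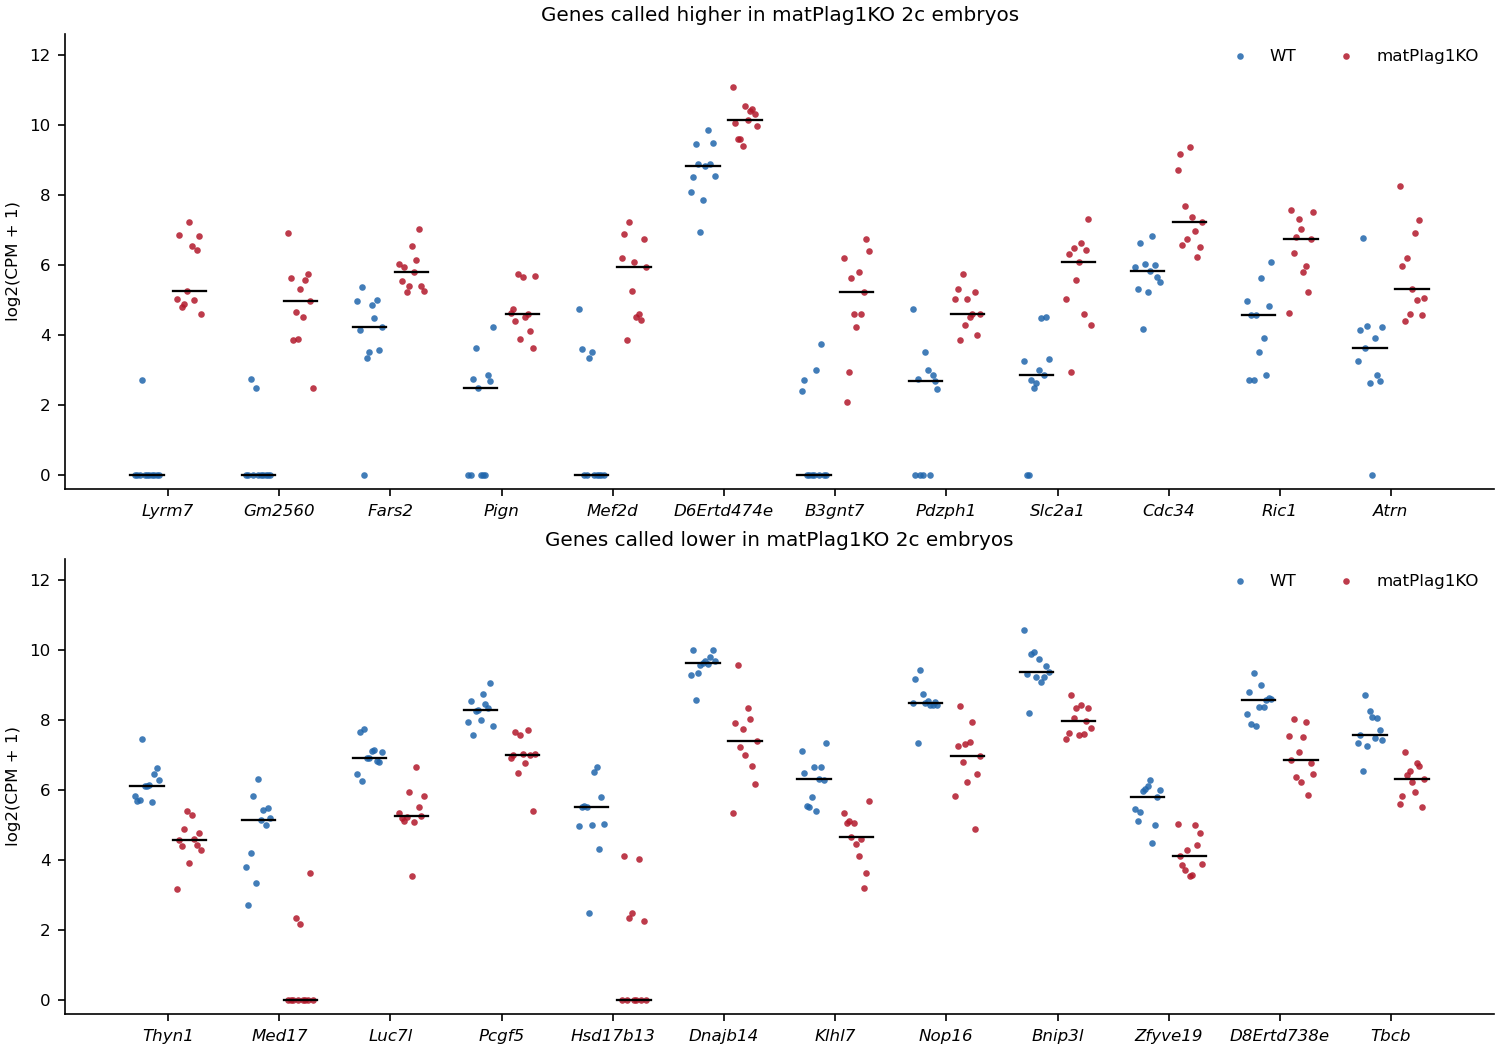
Each point is the log2(CPM + 1) level of 1 gene in 1 embryo, for the 12 higher genes and the 12 lower genes with the most separated embryos, in WT and matPlag1KO as labelled, with a line at each median. In Thyn1 and Lyrm7 the 2 groups do not overlap, and in the other 22 genes they do.

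Gene lists for 42 pathways, families and cell types were then counted. Of the 812 called genes, 254 were in a list and 558 were in none, 300 of the latter higher and 258 lower. Lists can share genes, and a shared call is counted in each list. Slc2a1 is in the glycolysis and solute carrier lists, and Bmp15 in the maternal-effect and growth factor signalling lists. Uhrf1 is in the maternal-effect and chromatin lists, and Eif1a in the translation factor and transient 2c lists. For comparison, 28 of 89 cytosolic ribosomal protein genes and 7 of 49 proteasome genes were lower and none of either higher. Ribosomal protein and proteasome genes are categories the study drew from these same samples. The study also drew translation, RNA processing and ribosome biogenesis from them, so the lists for these processes are not independent findings. Beyond ribosomal proteins, the proteasome and the check lists there were 35 biological lists. Of these, 13 had a median log2 fold change at least 0.2 below the median of all genes, and 6 one at least 0.2 above it. The 13 were nucleolar ribosome biogenesis, oxidative phosphorylation, splicing, RNA polymerase II and Mediator, the mitochondrial ribosome and import, translation factors, the exosome and nuclear pore, spindle and kinetochore genes, chaperones, aminoacyl-tRNA synthetases, lysosome and autophagy, DNA replication and repair, and nucleotide and one-carbon synthesis. The 6 were axon guidance and adhesion receptors, Obox genes, transient 2c genes, Hippo and polarity genes, growth factor signalling, and histones. The share of members called is shown in the plot of calls per list. Over all genes at a mean of 50 to 200 CPM 7.48% were lower, and over 200 CPM 15.2%. No list was matched to other genes by level.

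**Figure D3:**
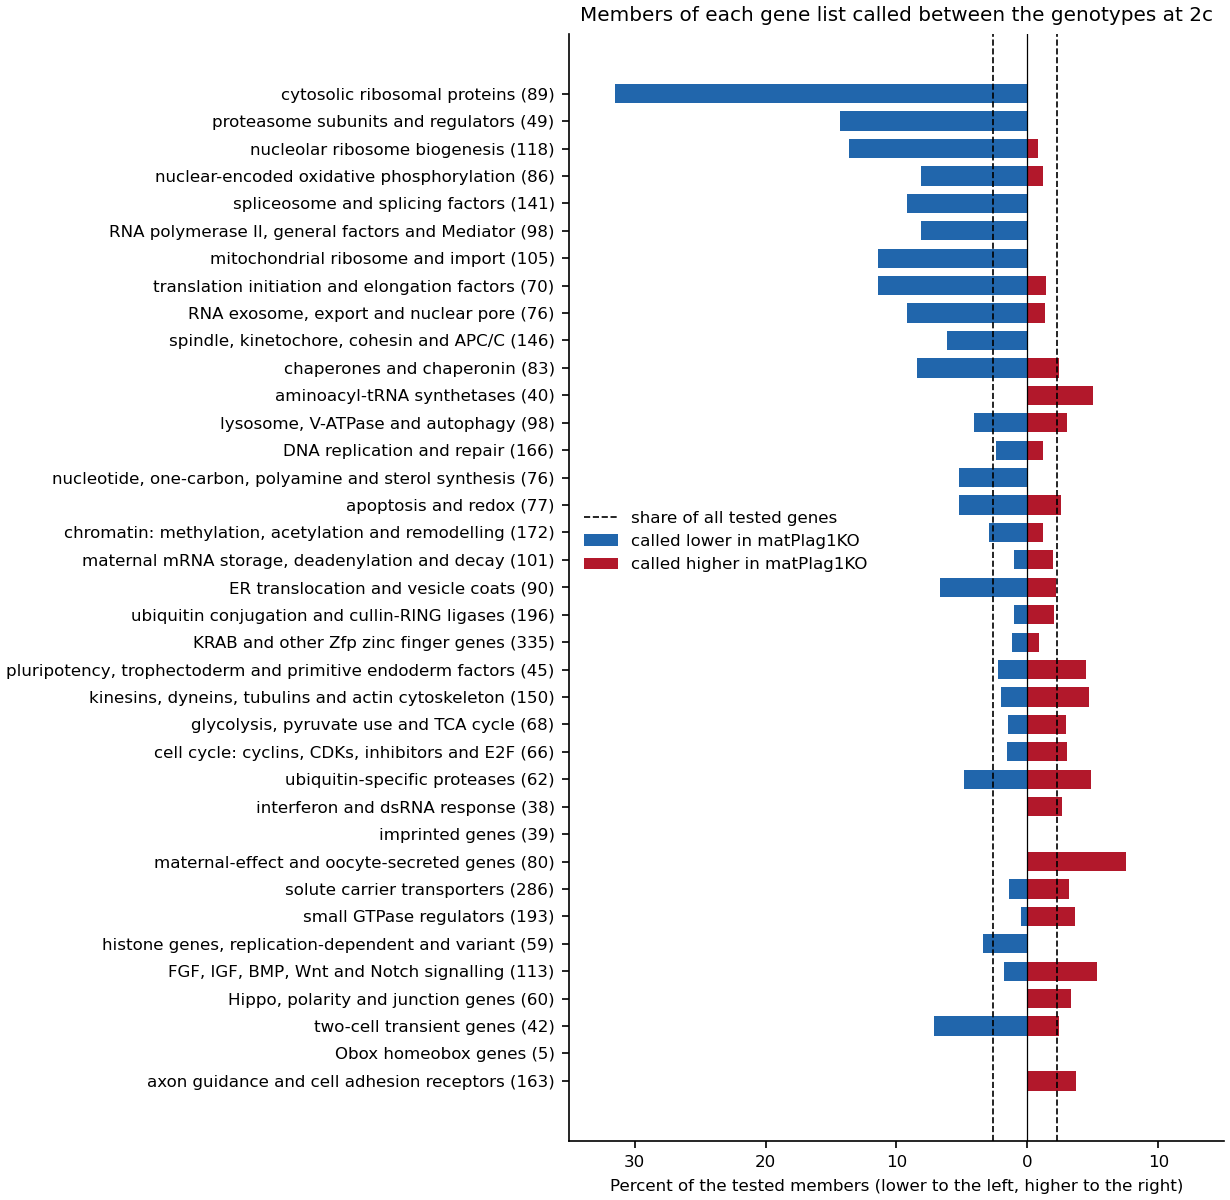
Bars give the percent of each list's tested members (number in brackets) called lower, to the left, or higher, to the right, in 2c embryos labelled matPlag1KO, and dashed lines mark the shares over all tested genes, 2.62% and 2.3%. Beyond ribosomal proteins and the proteasome, the largest lower shares were in nucleolar ribosome biogenesis (13.6%) and in the mitochondrial ribosome and import and the translation factor lists (11.4% each), and the largest higher share, leaving aside the Plag family of 3 genes, was in maternal-effect and oocyte-secreted genes (7.5%).

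Beyond the ribosomal proteins themselves, the machinery that makes ribosomes in the nucleolus was called almost entirely on the lower side. Of 118 tested genes of nucleolar ribosome biogenesis, 16 fell (13.6%, against 2.62% of all genes) and 1 rose. By level, 7.48% of all genes at 50 to 200 CPM were lower, and 15.2% of those over 200 CPM. A negative fold change was seen in 105 of the 118. The list's median log2 fold change was −0.60 (−0.40 within plate A and −0.86 within plate B). Ddx21, an RNA helicase of the nucleolus, was at 28.4, 51.99 and 187 against 120.3, 175 and 463 in WT, and 10 of 11 embryos lay below the lowest WT embryo (log2 fold change −1.74 ± 0.32, adjusted p = 0.000472). Lyar, a nucleolar growth regulator gene, was at 46.1, 61.7 and 177 against 45.96, 232 and 359 (log2 fold change −1.32 ± 0.29, adjusted p = 0.0032). The 1 gene of the list that rose was Efl1, which releases an assembly factor from the large subunit, at 0, 77.1 and 293 against 0, 18.2 and 56.3. The level of the list, taken per embryo as the mean log2(CPM + 1) over tested members, was 3.99, 5.14 and 6.01 (lowest, median, highest) in embryos labelled matPlag1KO and 4.98, 6.08 and 6.45 in WT. All 11 embryos labelled matPlag1KO lay below the WT median, and 4 lay below the lowest WT embryo. After spike-in scaling 6 members were lower and 1 higher, and a fit of the 2c libraries alone called 12 lower. Leaving out 1 embryo at a time from that fit gave 10 (without WT plate A well D5) to 29 (without matPlag1KO plate A well D6).

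Splicing genes were called only lower. Of 141 spliceosome and splicing factor genes, 13 fell (9.22%, against 2.62% of all genes) and none rose, and the median was −0.37. Lower calls made up 7.48% of all genes at 50 to 200 CPM and 15.2% of those over 200 CPM. Rbm25, a regulator of alternative splicing, was at 16.4, 64.6 and 139 against 51.7, 291 and 389 (log2 fold change −1.75 ± 0.32, adjusted p = 0.000472). Snrpa, an RNA-binding protein of the U1 snRNP, was at 30.1, 81.6 and 236 against 86.2, 314 and 547 (log2 fold change −1.72 ± 0.32, adjusted p = 0.000472), with 6 embryos below the lowest WT embryo. The list level ran from 4.25 to 5.33 in embryos labelled matPlag1KO and from 5.16 to 5.79 in WT, and 9 of 11 embryos labelled matPlag1KO were below every WT embryo. No other of the 8 lists in the plot of list levels had as many. The median was −0.26 within plate A and −0.40 within plate B. Spike-in scaling left 4 members lower, and the fit of the 2c libraries alone called 14 lower and 1 higher, or 7 lower (without matPlag1KO plate B well D2) to 21 (without matPlag1KO plate A well D6) with 1 embryo left out.

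Genes for translation itself, for RNA export and for transcription by RNA polymerase II were also called mostly on the lower side. Among 70 initiation and elongation factors 8 fell and 1 rose. Among 76 genes of the exosome, mRNA export and nuclear pore 7 fell and 1 rose. Among 98 genes of RNA polymerase II, its general factors and Mediator 8 fell and none rose. The lower shares of 11.4%, 9.21% and 8.16% stand against 2.62% of all genes. They also stand against 7.48% of genes at 50 to 200 CPM and 15.2% of genes over 200 CPM. Eif3e, a subunit of the scaffold initiation factor eIF3, was at 0, 4.08 and 15.4 against 0, 27.3 and 85.2 (log2 fold change −2.74 ± 0.47, adjusted p = 0.000135). Eif2s2, the beta subunit of eIF2, which brings the initiator tRNA, was at 268, 552 and 829.96 against 477, 1057 and 1609. For Ran, the GTPase of nuclear transport, the values were 106, 219 and 669 against 147, 500.4 and 1098. Med31, a middle-module subunit of Mediator, was at 11.3, 38.2 and 114 against 31.9, 197 and 257 (log2 fold change −1.88 ± 0.34, adjusted p = 0.000307), and together with Med17 it was 1 of the 2 Mediator genes named by the rule. Aminoacyl-tRNA synthetases went the other way in their calls, although the list's median was −0.15. In this list 2 of 40 were higher (5%, against 2.3% of all genes) and none lower. These were Fars2 and Farsb, the mitochondrial enzyme and a cytosolic subunit for the same amino acid, phenylalanine. Farsb was at 9.24, 81.2 and 461 against 33.5, 46.9 and 97.7, and 2 embryos labelled matPlag1KO lay below every WT embryo while 3 lay above. After spike-in scaling 1 translation factor, no exosome or pore gene and 2 polymerase II or Mediator genes were lower, and Eif2s2 and Ran were no longer called.

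Calls among mitochondrial genes encoded in the nucleus were also mostly lower. Of 86 oxidative phosphorylation genes 7 fell and 1 rose, with a median of −0.46 (−0.54 and −0.27 within plates A and B). Of 105 genes of the mitochondrial ribosome and protein import 12 fell and none rose, with a median of −0.34 (−0.25 and −0.34). The lower shares were 8.14% and 11.4%, against 2.62% of all genes. At a mean of 50 to 200 CPM 7.48% of genes were lower, and over 200 CPM 15.2%. Ndufs8, an iron-sulfur subunit of complex I, was at 7.97, 30.1 and 80.3 against 11.5, 108 and 304 (log2 fold change −1.90 ± 0.39, adjusted p = 0.00172), and Ndufb10, another complex I subunit, was at 0, 21.8 and 56.5 against 0, 0 and 13.7 (log2 fold change 2.53 ± 0.62, adjusted p = 0.00854). The 2 subunits of 1 complex thus moved in opposite directions. Atp5j, the coupling factor 6 gene of the ATP synthase, was at 23.9, 67.7 and 201 against 80.4, 263 and 395 and averaged 1.68 CPM in WT oocytes. Timm17a, a channel subunit of the inner membrane import complex, was at 28.2, 105 and 308 against 99.05, 430.1 and 663 (log2 fold change −1.82 ± 0.33, adjusted p = 0.000307). Mrpl39, of the large mitochondrial ribosomal subunit, had a count in 3 of 11 embryos labelled matPlag1KO and in 10 of 11 WT embryos. In 6 embryos labelled matPlag1KO the oxidative phosphorylation level was below the lowest WT embryo, and in 4 the mitochondrial ribosome and import level was. Spike-in scaling left 1 and 3 members of the 2 lists lower and Atp5j no longer called, and the fit of the 2c libraries alone called 6 and 10 lower, or 3 and 6 without WT plate A well D5.

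Intermediary metabolism gave few calls. In the list of glycolysis, pyruvate use and the TCA cycle 2 of 68 genes rose and 1 fell. These shares of 2.94% and 1.47% stand against 2.3% and 2.62% of all genes. Pcx, pyruvate carboxylase, was detected in 10 embryos labelled matPlag1KO with 32 counts and in 3 WT embryos with 3 counts, a ratio of 9.45-fold (95% counting interval 2.96 to 48.2). Mpc1, a subunit of the pyruvate carrier into mitochondria, fell and was at 194, 314 and 655 against 292, 613 and 896. Among 76 genes of nucleotide, one-carbon, polyamine and sterol synthesis 4 fell (5.26%) and none rose. They included Psat1 of serine synthesis, at 49.4, 113 and 273 against 155, 369 and 466, with 1.25 CPM in WT oocytes. Mat2a, which makes S-adenosylmethionine, was at 35.7, 125 and 522 against 184, 266 and 582, and Sat1, a polyamine acetylating enzyme, at 101, 351 and 693 against 314, 556 and 1137. Solute carriers had 9 higher and 4 lower of 286 tested (3.15% and 1.4%), the higher ones including Slc2a1. Slc13a3, a dicarboxylate transporter, was on the other side, with 1 count in embryos labelled matPlag1KO against 36 in WT (40.6-fold lower, 95% counting interval 6.84 to 1650). After spike-in scaling no gene of the nucleotide list was called, Pcx and Mpc1 were not, and 4 solute carriers were higher and 1 lower.

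Genes of mitosis were called only lower, and few cyclin and kinase genes were called at all. Of 146 spindle, kinetochore, cohesin and APC/C genes 9 fell (6.16%, against 2.62% of all genes) and none rose. Genes at a mean of 50 to 200 CPM were lower in 7.48% of cases and those over 200 CPM in 15.2%. The list median was −0.17. Cenpa, the histone variant that marks centromeres, was at 87.7, 259 and 724 against 299, 841 and 1183 (log2 fold change −1.52 ± 0.28, adjusted p = 0.000513). Mad2l1bp, whose product p31comet silences the spindle checkpoint, was at 279, 415 and 909 against 609, 988 and 1269 (log2 fold change −1.16 ± 0.26, adjusted p = 0.00321), and 10 of 11 embryos were below the lowest WT embryo. Of 66 cyclin, CDK, inhibitor and E2F genes 2 rose and 1 fell (3.03% and 1.52%). Of 166 DNA replication and repair genes 2 rose and 4 fell (1.2% and 2.41%). Both lists were near the shares of all genes, 2.3% and 2.62%. Cdc25a, the phosphatase that activates CDKs, was at 0, 0 and 24.7 against 4.56, 22.3 and 44.8, and Ccnd1, cyclin D1, at 0, 32.3 and 282 against 0, 8.63 and 56.6. Rpa2, of the single-stranded DNA binding complex, was at 60.02, 139.7 and 248 against 144, 429.9 and 585. Spike-in scaling left 2 spindle genes lower and ended the calls of Mad2l1bp, Cdc25a, Ccnd1 and Rpa2, and the fit of the 2c libraries alone called 10 lower and 1 higher, or 5 lower without matPlag1KO plate B well D2.

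Chromatin genes were called at shares near those of all genes. Of 172 genes for DNA and histone methylation, acetylation and remodelling 2 rose and 5 fell (1.16% and 2.91%), and of 59 histone genes 2 fell (3.39%) and none rose, against 2.3% higher and 2.62% lower over all genes. Cbx1, the heterochromatin protein HP1 beta, was at 199, 410.4 and 3648 against 695, 2593 and 5274 (log2 fold change −1.66 ± 0.34, adjusted p = 0.00158). Ruvbl1, an ATPase of the INO80 and TIP60 complexes, was at 59.9, 114 and 223 against 127, 311 and 531 (log2 fold change −1.26 ± 0.30, adjusted p = 0.00673). H2afz, the histone variant H2A.Z, was at 674, 1001 and 3695 against 1672, 3262 and 3862, and 8 embryos were below the lowest WT embryo. Uhrf1, a maternal protein that keeps DNA methylation, was on the other side, at 26.8, 120 and 272 against 16.9, 50.1 and 103, with 290.5 CPM in WT oocytes and 14.1 CPM at 8c. The Uhrf1 call was lost after spike-in scaling. Zinc finger genes of the Zfp families were called in 7 of 335 cases, 3 higher and 4 lower, 0.896% and 1.19% of the list. Imprinted genes gave no call among 39 tested by edgeR, with 8 at an unadjusted p under 0.05 and 1 called by DESeq2, Grb10, a growth factor receptor adaptor gene (adjusted p = 0.0484).

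Protein turnover beyond the proteasome gave calls on both sides. Among 83 chaperones 7 fell and 2 rose (8.43% and 2.41%). Among 90 genes of ER translocation and vesicle coats 6 fell and 2 rose (6.67% and 2.22%). Among 98 genes of lysosomes and autophagy 4 fell and 3 rose (4.08% and 3.06%). Over all genes 2.62% were lower and 2.3% higher, and the lower share was 7.48% at 50 to 200 CPM and 15.2% over 200 CPM. Hspa5, the ER chaperone BiP, was at 6.50, 45.1 and 101 against 28.7, 169 and 457 (log2 fold change −2.16 ± 0.44, adjusted p = 0.00178), and Sec62, of the ER translocon, at 28.2, 55.8 and 100.4 against 34.5, 156 and 328. Fkbp5, a co-chaperone of HSP90, rose and was at 38.5, 115 and 222 against 13.9, 49.2 and 86.3, and Hspa2, an HSP70 of germ cells, was at 0, 60.02 and 148 against 0, 0 and 40.2. Chaperone levels were below the WT median in all 11 embryos labelled matPlag1KO, and the median fold change of the list lay below that of all genes by 0.28 in the TMM scaling and by 0.25 with spike-ins. Map1lc3b, the autophagosome protein LC3B, was at 304, 627 and 2657 against 793, 1537 and 2477. Lrrk2, a kinase that responds to lysosomal stress, had 27 counts in 6 embryos labelled matPlag1KO and none in WT, at least 7.97-fold higher by the same floor. Arf3, a GTPase of vesicle coats, was at 20.1, 132 and 491 against 5.21, 32.8 and 86.6. The calls of Map1lc3b, Fkbp5 and Hspa2 were lost after spike-in scaling.

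Ubiquitin genes were called in both directions. Of 196 genes of conjugation and cullin-RING ligases 4 rose and 2 fell, and of 62 ubiquitin-specific proteases 3 rose and 3 fell, against 2.3% and 2.62% of all genes. Rnf7, the RING subunit of cullin-5 ligases, was at 57.1, 129.9 and 783 against 149, 636 and 1092 (log2 fold change −1.56 ± 0.31, adjusted p = 0.00142). Nedd4l, a HECT ligase, was at 27.3, 80.3 and 355 against 5.21, 22.98 and 84.9, and Usp2, a deubiquitinase, at 17.7, 92.2 and 248 against 6.93, 17.3 and 63.8. Nedd4l and Usp2 averaged 285 and 176 CPM in WT oocytes, whereas Rnf7 averaged 8.83. Stress lists gave little. Of 77 apoptosis and redox genes 2 rose and 4 fell (2.6% and 5.19%). Of 38 interferon and double-stranded RNA response genes 1 rose (2.63%). Gstm1, a glutathione transferase, was at 0, 4.61 and 173 against 0, 0 and 18.8, and Irf7, a regulator of interferon genes, was on 23 counts against 2 (10.2-fold, 95% counting interval 2.52 to 89.2), a call lost after spike-in scaling.

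Among the transient genes of the 2c stage, the calls were mostly lower while the median of the list was above that of all genes. Of 42 tested transient 2c genes 3 fell and 1 rose (7.14% and 2.38%, against 2.62% and 2.3% of all genes). The median was 0.60. Dppa2 and Dppa4, a pair of SAP-domain proteins that act early in genome activation, both fell. Dppa2 (chr16:48310387-48319626) was at 104, 135 and 415 against 328, 481 and 1226 (log2 fold change −1.57 ± 0.26, adjusted p = 0.000127), and Dppa4 at 57.1, 97.5 and 328 against 149, 357 and 546 (log2 fold change −1.39 ± 0.32, adjusted p = 0.00482). In 9 and 7 embryos labelled matPlag1KO, respectively, they lay below the lowest WT embryo. Eif1a, a translation factor gene often used as a marker of activation, was at 0, 7.97 and 52.6 against 0, 32.8 and 90.1. Tdpoz4, a multicopy gene whose counts may be split with its near-identical relatives, rose and was at 0, 33.8 and 946 against 0, 14.2 and 50.04. The 3 genes that fell were not transient in these libraries. From WT 2c to WT 8c embryos the mean of Dppa2 went from 530.5 to 1795 CPM, that of Dppa4 from 368 to 480.3 and that of Eif1a from 37.8 to 274. The list's level was 3.80, 4.26 and 5.29 in embryos labelled matPlag1KO and 2.96, 3.84 and 4.52 in WT, while the summed CPM of its genes ran from 3882 to 9191 and from 2958 to 10152. The level gives scarce members more weight than the sum does.

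Factors of later cell types gave few calls. Of 45 pluripotency, trophectoderm and primitive endoderm factors 2 rose and 1 fell (4.44% and 2.22%, against 2.3% and 2.62% of all genes). Dppa5a, an RNA-binding protein of pluripotent cells, was at 146, 289.6 and 1118 against 172, 999.5 and 2178 (log2 fold change −1.72 ± 0.36, adjusted p = 0.00188), and averaged 6138 CPM at 8c. Utf1, a chromatin factor of pluripotent cells, was at 0, 49.1 and 120.05 against 0, 6.93 and 38.9. Prdm1, a transcriptional repressor needed to specify germ cells, rested on 18 counts against 1, a ratio of 15.9-fold (95% counting interval 2.52 to 664). Of 60 Hippo, polarity and junction genes 2 rose (3.33%) and none fell, and 5 embryos labelled matPlag1KO lay above the highest WT level. Aqp3, a water and glycerol channel of the trophectoderm, was at 0, 9.24 and 95.7 against 0, 0 and 18.2. Dppa2, Dppa5a, Utf1, Aqp3 and Tdpoz4 remained called after spike-in scaling, and Dppa4, Eif1a and Prdm1 did not.

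Calls among maternal-effect and oocyte-secreted genes were all higher. Of 80 maternal-effect and oocyte-secreted genes 6 rose and none fell, 7.5% against 2.3% of all genes, and the median was 0.26 (0.21 within plate A and 0.55 within plate B). Nlrp4a, of the oocyte NLRP family, was at 18.5, 45.9 and 306 against 0, 6.93 and 68.9 (log2 fold change 2.20 ± 0.48, adjusted p = 0.00273), after 337 CPM in WT oocytes. Oog2, an oocyte leucine-rich repeat gene, was at 16.2, 57.1 and 82.7 against 0, 8.63 and 55.5 (log2 fold change 1.89 ± 0.44, adjusted p = 0.00511), after 88.6 CPM. Bmp15, the oocyte growth factor, was at 222, 881 and 5014 against 135, 349.6 and 781 (log2 fold change 1.83 ± 0.46, adjusted p = 0.011), with 1895 CPM in WT oocytes and 13.5 CPM at 8c, although Bmp15 overlaps several predicted gene models. All 3 embryo ranges overlapped with WT. The list level was 5.65, 6.09 and 6.83 in embryos labelled matPlag1KO and 5.25, 5.87 and 6.49 in WT. Above the highest WT embryo lay 3 embryos. In oocytes the mean list level was 7.56 ± 0.27 (SD, n = 14) in matPlag1KO and 7.25 ± 0.32 (n = 16) in WT. The genes that store, deadenylate and destroy maternal mRNA gave 2 higher and 1 lower call of 101 (1.98% and 0.99%). The lower one was Btg1, an antiproliferative gene that binds deadenylases (13 counts against 48), whose call was lost after spike-in scaling. Spike-in scaling left 4 maternal-effect genes higher and none lower. Leaving out 1 embryo at a time from a fit of the 2c libraries alone, which called 13 higher, gave 9 (without WT plate A well D5) to 17 (without WT plate A well D4).

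Receptors, signalling and cytoskeletal genes were called more often higher than lower, as were solute carriers above. Of 113 genes of FGF, IGF, BMP, Wnt and Notch signalling 6 rose and 2 fell, of 163 axon guidance and cell adhesion receptors 6 rose and none fell, of 193 regulators of small GTPases 7 rose and 1 fell, and of 150 kinesin, dynein, tubulin and actin genes 7 rose and 3 fell. The higher shares were 5.31%, 3.68%, 3.63% and 4.67% in that order, and the lower shares 1.77%, 0%, 0.518% and 2%. All genes were at 2.3% and 2.62%, and those at a mean of 2 to 10 CPM at 3.29% and 0.915%. A lean to higher calls was thus also seen over scarce genes at large. Many genes of these lists were scarce. Fgfr3, an FGF receptor, had 26 counts in 6 embryos labelled matPlag1KO and none in WT, at least 7.68-fold higher. Nlgn2, a cell adhesion protein known from synapses, had 31 counts in 4 embryos against 1 count (27.5-fold, 95% counting interval 4.58 to 1120). More abundant ones were Cdc42se2, an effector of CDC42, at 308, 889 and 1193 against 287, 344 and 601, and Kif17, a kinesin motor, at 100.4, 471 and 1015 against 57.3, 132 and 580.3. Kif17 averaged 696 CPM in WT oocytes and 11.3 at 8c. Dynlt1b, a dynein light chain with near-identical copies, had 30 counts in 10 WT embryos and none in embryos labelled matPlag1KO, at least 11.3-fold lower, and reads may have been shared among the copies. The signalling level exceeded the highest WT embryo in 6 embryos labelled matPlag1KO and the receptor level in 5. Spike-in scaling left 3 signalling genes, 5 receptors and 3 GTPase regulators higher.

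**Figure D4:**
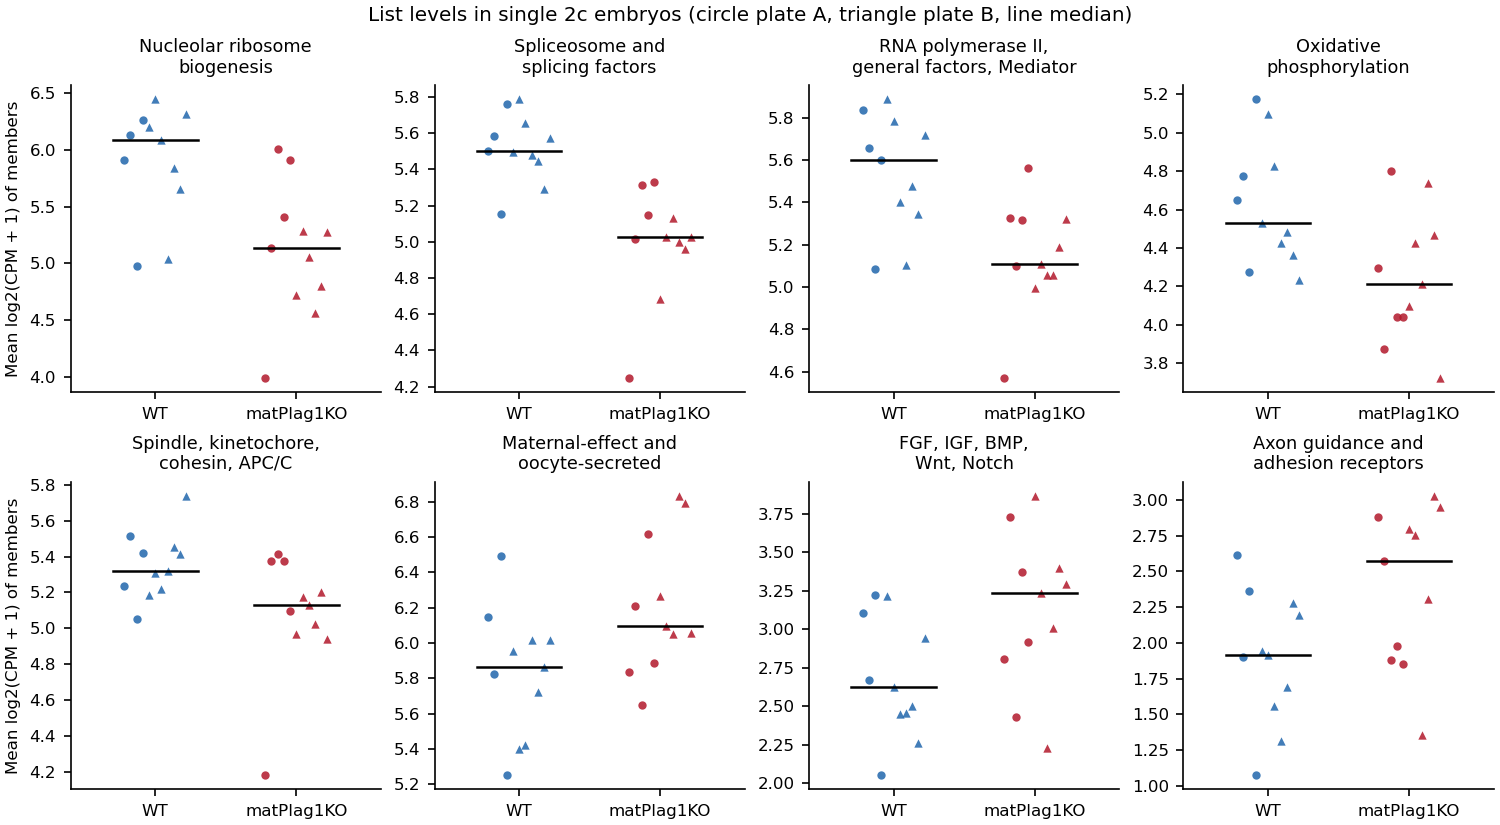
Each point is 1 embryo (circle plate A, triangle plate B) and each panel 1 list, with the mean log2(CPM + 1) over tested members on the vertical axis and a line at the median. In the spliceosome panel 9 of 11 embryos labelled matPlag1KO lie below every WT embryo, and in the FGF, IGF, BMP, Wnt and Notch panel 6 lie above every WT embryo.

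The embryos labelled matPlag1KO did not all differ to the same extent. The lists counted here were picked by their medians in these same embryos. That most embryos lie on the picked side is thus largely built in, and the counts describe only the spread between embryos. Over the 13 lists with lower medians, each embryo labelled matPlag1KO was below the WT median in 9 to 13 lists, and 3 of the 11 were below it in all 13. Below the lowest WT embryo they lay in 0 to 10 lists, and 10 of 11 did so in at least 1. The embryo in plate A well D1 was below the lowest WT embryo in 10 of 13 lists, and the one in plate A well D6 in none. Well D1 held 92475 gene counts, the fewest of the kept 2c libraries, and well D6 held 121428. Whether depth bears on the list levels was not tested. WT embryos spread as widely around their own median, from 1 to 13 lists, with plate A well D4 below it in all 13 and plate B wells C5 and C6 in 12 and 10. In the 6 lists with higher medians, 7 of the embryos labelled matPlag1KO exceeded the highest WT embryo in at least 1. Without the embryo in plate A well D1 the fit of the 2c libraries alone called 635 genes instead of 763, and 9 rather than 14 spliceosome genes were lower.

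Set beside the other stages, the lists took different courses. Nucleolar ribosome biogenesis had a level of 4.36 ± 0.47 (SD, n = 16) in WT oocytes, 5.90 ± 0.49 (n = 11) in WT 2c embryos and 6.55 ± 0.17 (n = 15) in WT 8c embryos, with 5.11 ± 0.58 (n = 11) in 2c embryos labelled matPlag1KO. Spindle, kinetochore, cohesin and APC/C genes were at 5.22 ± 0.22, 5.35 ± 0.19 and 4.92 ± 0.21, with 5.08 ± 0.34 in embryos labelled matPlag1KO. The transient 2c genes were at 1.17 ± 0.20, 3.91 ± 0.52 and 1.92 ± 0.17 in the same WT groups, highest at 2c, with 4.38 ± 0.44 in 2c embryos labelled matPlag1KO. The maternal-effect list declined, from 7.25 ± 0.32 in WT oocytes through 5.83 ± 0.36 in WT 2c embryos to 3.32 ± 0.55 at 8c, with 6.21 ± 0.39 in 2c embryos labelled matPlag1KO. These values share the WT 2c embryos with the genotype comparison and are given side by side without a test.

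**Figure D5:**
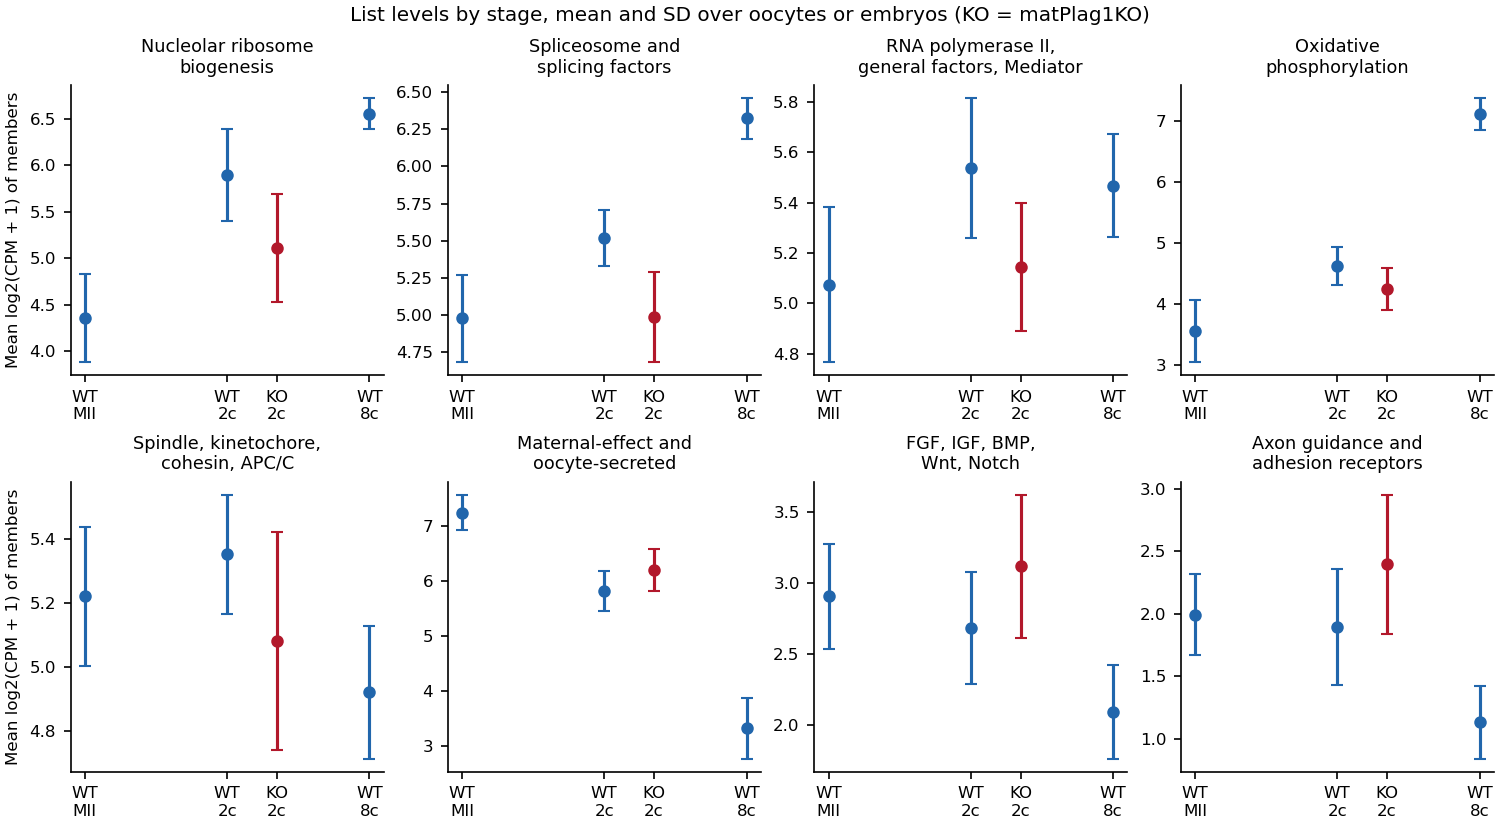
Points are the mean and bars the SD over oocytes or embryos of the mean log2(CPM + 1) level of 8 lists, in WT MII oocytes, WT 2c embryos, 2c embryos labelled matPlag1KO (KO) and WT 8c embryos. The maternal-effect panel declines from 7.25 in oocytes to 3.32 at 8c. The 2c embryos labelled matPlag1KO are at 6.21, above the WT 2c mean of 5.83. Oocytes and 8c embryos labelled matPlag1KO are not drawn.

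The genotype difference at 2c was compared with those at the other stages by an interaction test. It differed from the 8c difference for 380 genes (2.3%) and from the oocyte difference for 546 genes (3.31%). At 8c 287 genes were called between the genotypes (1.74%), and 9 genes were called at both 2c and 8c, 4 in the same and 5 in opposite directions.

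Other cell types, sex-linked genes and the chromosome around Plag1 were checked last. Of 30 cumulus and granulosa markers 13 were tested and none was called by edgeR, with 2 at an unadjusted p under 0.05, 0 called by DESeq2 and a summed level of 0 to 129 CPM in embryos labelled matPlag1KO and 13 to 112 CPM in WT. Of 22 sperm and spermatid markers 9 were tested and none was called, with 3 at an unadjusted p under 0.05, 0 called by DESeq2 and sums of 24.4 to 231 CPM and 31.2 to 163 CPM. The maternal-effect list summed to 36263 to 67896 and 24769 to 61594 CPM. Of 6 tested Y-linked genes none was called. Their list level was 0, 0.448 and 2.54 in embryos labelled matPlag1KO and 0.449, 1.46 and 2.78 in WT. Below the lowest WT embryo lay 6 of the 11 embryos labelled matPlag1KO. Of 5 X inactivation genes none was called, and their median log2 fold change was 0.99. Embryo sex is not in the labels, and a difference in sex ratio between the groups was not tested. The Plag1 relatives were scarce, with Plagl1 counted in 3 embryos labelled matPlag1KO and 5 WT embryos (adjusted p = 0.534) and Plagl2 in 5 and 2 (adjusted p = 0.499). Within 20 Mb of Plag1, the stretch of chromosome 4 that can stay linked to the knockout allele, 4 of 67 tested genes were called, 2 higher and 2 lower, 5.97% of them against 4.92% of all genes. The higher ones were Cdh17 and Gm2560, the gene described above among the most separated, and the lower ones were 4930528A17Rik and Pnisr, which overlap each other on opposite strands.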

How the data were processed

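Single MII oocytes and 2c and 8c embryos were sequenced by a 5′-end method with molecular identifiers and 92 ERCC spike-ins, and the authors deposited whole-number counts per gene after alignment to mm9 with TopHat and counting with HOMER (the submitters' processing notes name mm9 and HOMER). Whether counting used strand is not given in the sources used here, so overlapping genes cannot be told apart. All 90 library columns matched a label, and 0 columns were unused.

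Libraries with a median under 1 CPM were left out, over genes at 1 CPM in at least 5 libraries, which gave 78 kept libraries. For leaving out libraries and genes, CPM was taken without TMM factors. Genes at 1 CPM in at least 5 kept libraries were tested by edgeR 4.0.16 (quasi-likelihood test, TMM factors without spike-ins, a mean for each of 6 groups, Benjamini-Hochberg adjustment over 16511 genes, called under 0.05) in R 4.3.3. Fitted folds are log2 with SE. Adjusted p-values come from this fit. The script was tested on simulated data. Single values per embryo were compared by two-sided permutation tests (100000 resamples, exact within plates) in SciPy 1.17.1. Intervals and floors (3 counts over the group, 95%) cover counting error only. Alternatives were DESeq2 1.42.0, other scalings, filters and libraries, plate, and leaving out each embryo.

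Named genes were the Plag family, the 12 higher and 12 lower called genes with a mean of at least 20 CPM, the same sign in both plates and the largest share of embryo pairs differing in the called direction, and some of the 2 called genes of lowest p per direction in each list, or of up to 5 called in a list. The genes and lists were chosen with earlier results of these data known.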

Additional observations from a re-analysis of the deposited data

Results flagged for a closer look

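Several genes named above differed between the genotypes at 2c in another way than at 8c or in oocytes, by an interaction test of edgeR's quasi-likelihood fit with the adjusted p under 0.05. Over all tested genes this held for 2.3% against 8c and 3.31% against oocytes. The genes were named for their 2c difference, so the values describe them and were not weighed. The genotype difference in log2 at 2c exceeded that at 8c by 8.16 for Gm2560, 7.06 for Lrrk2, 6.28 for Nlgn2, 5.92 for Lyrm7, 5.66 for Plag1, 5.60 for Nfam1, 5.00 for Irf7, 4.67 for Aqp3, 4.18 for Mef2d and 3.60 for B3gnt7. Further excesses over the 8c difference were 3.41 for Arf3, 3.37 for Pign, 3.28 for Slc2a1, 3.24 for Efl1, 3.16 for Ndufb10, 2.96 for Usp2, 2.65 for Atrn, 2.54 for Fars2, 2.41 for Nedd4l and 2.27 for Utf1. Below the 8c difference, by the same test, the 2c difference lay at −6.43 for Slc13a3, −4.91 for Dynlt1b, −4.10 for Med17, −3.23 for Mrpl39, −2.67 for Eif3e, −2.32 for Dnajb14, −2.19 for Med31, −1.98 for Hspa5, −1.94 for Cbx1, −1.93 for Klhl7, −1.90 for Ndufs8 and −1.88 for Ddx21. The remaining values below the 8c difference were −1.81 for Nop16, −1.80 for D8Ertd738e, −1.75 for Pcgf5, −1.69 for Snrpa, −1.68 for Timm17a, −1.65 for Rbm25, −1.58 for Rnf7, −1.53 for Brf2, −1.52 for Mad2l1bp, −1.50 for Rpa2 and −1.37 for Sec62. For scarce genes such as Lrrk2, Slc13a3, Nlgn2 and Nfam1 a fitted value depends on the prior count and is no bound.

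Against oocytes, Plag1 itself stood out with an adjusted p of 6e-13, its oocyte and 2c differences being of opposite sign. The 2c difference exceeded the oocyte difference by 11.24 for Plag1, 9.92 for Nfam1, 7.43 for Lrrk2, 5.65 for Lyrm7, 5.59 for Fgfr3, 4.42 for Gm2560, 3.89 for B3gnt7, 3.73 for Pdzph1, 3.42 for Slc2a1, 3.40 for Mef2d, 2.68 for Spsb3 and 2.44 for Arf3. Further excesses over the oocyte difference were 2.43 for Ric1, 2.42 for Efl1, 2.39 for Cdc34, 2.28 for Oog2, 2.25 for Nlrp4a, 2.19 for Atrn, 2.18 for Usp2, 1.94 for Fars2, 1.83 for D6Ertd474e, 1.79 for Nedd4l and 1.32 for Cdc42se2. Below the oocyte difference the 2c difference lay at −6.52 for Dynlt1b, −4.69 for Slc13a3, −4.51 for Mrpl39, −4.04 for Med17, −3.40 for Hspa5, −3.13 for Hsd17b13, −3.09 for Eif3e, −2.51 for Brf2, −2.27 for Thyn1, −2.25 for Tbcb, −2.11 for Dppa5a, −2.07 for Ndufs8 and −2.05 for Rpa2. The remaining values below the oocyte difference were −1.93 for Ddx21, −1.90 for Luc7l, −1.84 for Cenpa, −1.78 for Bnip3l, −1.78 for Snrpa, −1.77 for Med31, −1.62 for Rbm25, −1.60 for Dppa2, −1.59 for Cbx1, −1.51 for Rnf7, −1.50 for Lyar, −1.42 for Sec62 and −1.39 for Timm17a.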

How the results depend on the processing

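The counts of 812 called genes, 379 higher and 433 lower, moved with several choices. Plate A alone gave 0, 0 and 0, with fewer embryos and genes tested, and plate B alone gave 524 genes, 226 of them higher. Spike-in scaling gave 285, 191 and 94, and adjusted p under 0.01 gave 198, 73 and 125. The differences from 8c and from oocytes were called for 92 and 312 genes with spike-in scaling. The difference in detected genes, 392.1 in plate A alone, was no longer past the threshold. Leaving out 1 embryo at a time gave 453 to 1110 calls, 238 to 567 higher and 215 to 543 lower, against 763 for the 2c libraries alone. The calls were 453 without WT plate A well D5, 465 without matPlag1KO plate B well D2, 501 and 510 without WT plate B wells C4 and C3, 519 without matPlag1KO plate A well D2, 524 without matPlag1KO plate B well D7, and 1110 without matPlag1KO plate A well D6. The cause of these shifts was not tested. Fitting the 2c libraries alone called 13 maternal-effect genes higher rather than 6, and 4 RNA polymerase II and Mediator genes and 2 exosome and pore genes lower rather than 8 and 7. Of 86 called genes named here, 57 stayed called with spike-in scaling, 85 with median-ratio scaling, 76 with DESeq2, 80 with plate as a term and 70 when any 1 embryo was left out, and none reversed its sign under the alternatives run. No paired analysis was possible because wells, the only numbers in the labels, are not shared between the genotypes. Depth limits what can be said of genes with a few counts per embryo, and a lost call does not show that the levels were alike.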
